A study of Mus musculus with 16 samples.

Results

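The actin cytoskeleton genes are 9 protein-coding mouse genes chosen by name: the actins Actb and Acta2, the filament crosslinkers Actn1, Actn4 and Flna, the motor genes Myh9 and Myl12a, and the filament turnover genes Cfl1 and Pfn1. All 9 had Dazl coverage here, in 42 of the 8338 regions listed in the series, and they are 9 of the 3203 genes with a region. The measurement is KIN-CLIP, an iCLIP method in which RNA crosslinked to a protein by a pulsed ultraviolet laser is isolated and sequenced. The cells were GC-1 spg, a mouse spermatogonial line, used as a single clone in which doxycycline induces Dazl from a transgene. The groups are combinations of laser power (2.6 or 1 mW), Dazl level (4.2x or 1x) and crosslinking time (30, 180 or 680 s), and all of them carry the transgene. Each of the 12 combinations had 1 library and so no replicate, and coverage before crosslinking is lacking as background, because the 4 samples of 0 s were not analysed here.

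Dazl is a germ cell RNA-binding protein with an RNA recognition motif. It is known to bind GU-rich sites, mostly in 3 prime untranslated regions, and to act on the translation and stability of the bound mRNAs. Actin monomers assemble into filaments that give a cell its shape. Crosslinkers tie the filaments into bundles and networks, nonmuscle myosin II pulls on them, and cofilin and profilin control how filaments are taken apart and rebuilt. In the testis this network takes part in cell division, in the cell contacts of the epithelium and, as smooth muscle actin in peritubular cells, in contraction. Apart from Acta2, a smooth muscle gene, these genes are known to be expressed in most cell types.

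The deposited values are whole-number normalized coverage per position, without strand. Listed intervals at most 10 nt apart were joined into regions, and the coverage of a region is the sum over its positions. The coverage of a gene is the sum over its regions, so it grows with the number of regions as well as with the value at each. Library coverage ran between 11271 (180 s, 1 mW, 1x) and 252932 (680 s, 2.6 mW, 4.2x). Of the germ cell markers 1 of 10 had a region (Sall4, mean coverage 1.67), of the Sertoli cell markers 2 of 5, of the smooth muscle-like markers 1 of 5, which is Acta2 itself, and of the fibroblast markers 2 of 5 (Col1a1, mean coverage 715.17, and Col1a2, 145.92, both above all of the 9 genes). Dazl itself had none, and the labelled Dazl levels could not be checked on its own coverage. A gene has a value only where an interval was listed in it, and how these sites were chosen is not described. No RNA abundance was used here, so coverage cannot be divided into amount of RNA and binding per RNA.

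The regions lay mostly near the 3 prime end of the genes. The strand was known for 8 of the 9 genes, with 36 regions, and 25 of these (69.4%) lay within 1000 nt of the 3 prime end of the gene span, while 3 (8.33%) lay within 1000 nt of the 5 prime end. Over all genes with a known strand the shares were 37.3% and 6.6% of 6215 regions. The median distance to the 3 prime end was 537.5 nt in these genes and 1678 nt over all. The comparison with all genes was not matched for span length, which ran from 3577 nt (Cfl1) to 92879 nt (Actn1) in the 8 genes. The spans contain introns, and exons and untranslated regions were not annotated here, so distance along the spliced RNA is not known. Of the 42 regions 39 (92.9%) were 17 nt wide, against 81.9% of all regions in genes. No promoter or miRNA sequence in the RefSeq tables overlapped a region, so no sequence is shown.

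**Figure D1:**
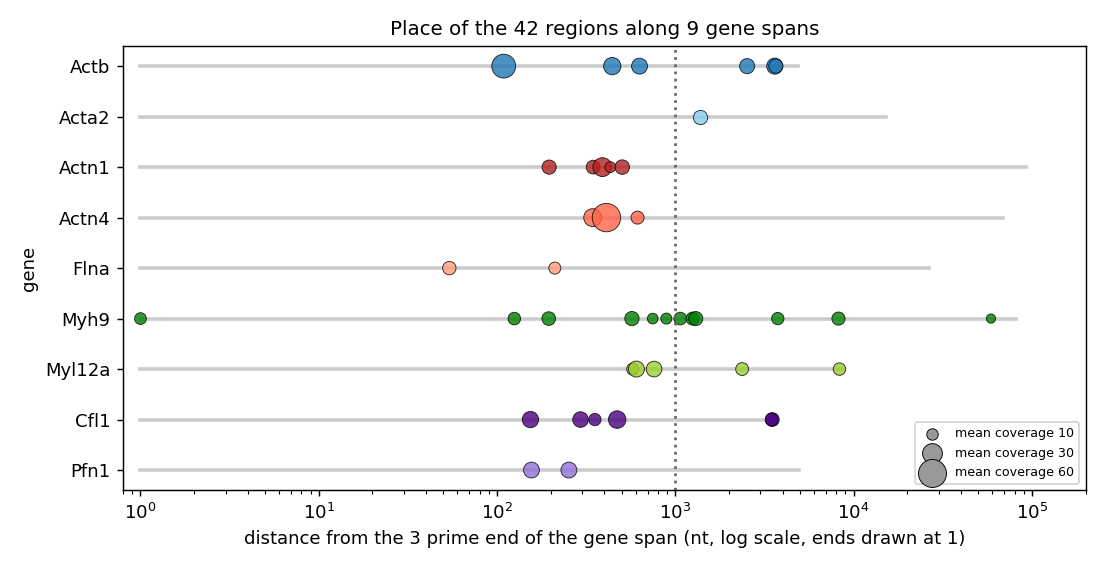
Each point is 1 of the 42 regions, placed by its distance in nt from the 3 prime end of its gene span on a log axis, with an area in proportion to its mean coverage over 12 libraries; grey lines show the span and the dotted line 1000 nt. All regions of Actn1, Actn4, Flna and Pfn1 lie within 1000 nt of the 3 prime end, while Myh9, Myl12a, Cfl1 and Actb also have regions farther away. For Actb the distance is from the end with the lower coordinate, and the Myh9 region that crosses the end is drawn at 1.

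All 10 regions of the filament crosslinkers lay within 1000 nt of the 3 prime end. Actn1 and Actn4 encode alpha-actinins, which bundle actin filaments. Actn1 (chromosome 12, 80167542 to 80260420 in mm10, minus strand, span 92879 nt) had 5 regions between 196 and 504 nt from its 3 prime end, with gaps of 25 to 133 nt. Actn4 (chromosome 7, 28893248 to 28962351, minus strand) had 3 regions between 344 and 614 nt from the end. They are 45, 50 and 21 nt wide, and they are the 3 regions of the set wider than 17 nt. Flna encodes filamin A, which joins filaments into networks. It (chromosome X, 74223461 to 74249854, minus strand) had 2 regions at 54 and 211 nt from its 3 prime end.

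The motor genes had regions along more of their span. Myh9 encodes the heavy chain of nonmuscle myosin IIA. It (chromosome 15, 77760585 to 77842175, minus strand) had 12 regions, the largest number of the 9 genes. One of them crosses the annotated end by 12 nt, 8 others lie between 125 and 1302 nt from it, and the others lie at 3758, 8230 and 58985 nt. Myl12a encodes a regulatory light chain of this myosin. It (chromosome 17, 70993793 to 71002533, minus strand) had 5 regions, of which 3 lay between 576 and 760 nt from the 3 prime end. The region at 71002130 to 71002146 lay 387 nt from the 5 prime end. Its close relative Myl12b had no region, and the placement of reads that match both is not described in the labels.

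Actb, the beta-actin gene of nonmuscle cells, lies on chromosome 5 at 142903115 to 142907976 and is known to be transcribed from the minus strand, although the table used for strand does not list it. It had 6 regions, 3 of them 109 to 630 nt from the end with the lower coordinate. The outermost, at 142903224 to 142903240, also lies in the noncoding gene Gm38733, and without strand its coverage cannot be given to either gene. Acta2, the actin of smooth muscle, lies on chromosome 19 at 34240336 to 34255585 on the minus strand. It had a single region, at 34241710 to 34241726, 1374 nt from the 3 prime end. The coding parts of actin genes are near copies of each other, so coverage inside them is uncertain. Actg1, the other nonmuscle actin, had no region.

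Cfl1 encodes cofilin, which severs filaments, and Pfn1 encodes profilin, which delivers actin monomers to growing ends. Cfl1 (chromosome 19, 5490455 to 5494031, plus strand) had 4 regions within 154 to 472 nt of its 3 prime end and 2 within 59 and 92 nt of its 5 prime end. Pfn1 (chromosome 11, 70651844 to 70656799, minus strand) had 2 regions, at 156 and 253 nt from the 3 prime end.

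Summed coverage was highest for Myh9, with a mean of 142.75 over the 12 libraries (rank 126 of 3203 genes), and for Actb, with 138.33 (rank 131). Cfl1 had 101.2 (rank 213), Actn4 99.2 (rank 219), Actn1 82.4 (rank 289), Myl12a 73.6 (rank 353) and Pfn1 38.6 (rank 751). Flna had 24.8 (rank 1148) and Acta2 15.7 (rank 1653), and the median over all genes was 16.3. Myh9 was the highest of the 9 in 7 libraries, Actb in 4 and Actn4 in 1, while Acta2 was the lowest in 8 and Flna in 4. The order changes per listed nucleotide. There Actb had the highest mean coverage, 1.36 per nt, and 2.06% of all genes had more, followed by Pfn1 with 1.14, Cfl1 with 0.992, Actn1 with 0.97, Acta2 with 0.922, Myl12a with 0.866 and Actn4 with 0.856. Flna with 0.73 and Myh9 with 0.7 were the lowest of the 9, and all 9 lay above the median over genes of 0.632. With 1 library per condition these are means over unlike conditions, and neighbours in this order were not tested against each other.

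The 9 genes together held between 0.496% (30 s, 1 mW, 1x) and 0.665% (30 s, 2.6 mW, 4.2x) of library coverage. The lowest shares, 0.496% and 0.523%, were those of the 30 and 180 s libraries of 1 mW and 1x Dazl. In these 30 and 34 of the 42 regions stood at a coverage of 1, the lowest value listed (71.4% and 81.0%, against 74.0% and 80.5% of all regions). At 680 s no region of these genes was at 1 in any of the 4 series. Of all regions 7.99% were at 1 in the 680 s library of 1 mW and 1x, and 0% in each other 680 s library.

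Values by condition follow for each gene, with the times in the order 30, 180 and 680 s. At 2.6 mW Actb had a coverage of 196, 214 and 308 with 4.2x Dazl, against 127, 103 and 259 with 1x. With 1 mW Actb had 69, 50 and 207 with 4.2x, against 8, 7 and 112 with 1x. The 4.2x value was the higher in 6 of 6 matched pairs, and the ratio was smallest, 1.19, at 680 s and 2.6 mW. Acta2 at 2.6 mW had 32, 31 and 32 with 4.2x, against 5, 5 and 21 with 1x. With 1 mW Acta2 had 14, 11 and 22 with 4.2x, against 1, 1 and 13 with 1x. Its value at 2.6 mW and 4.2x was the same at 30 and 680 s.

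Actn1 at 2.6 mW had 137, 142 and 181 with 4.2x Dazl, against 37, 36 and 143 with 1x. With 1 mW Actn1 had 86, 42 and 106 with 4.2x, against 15, 8 and 56 with 1x. At 30 and 180 s the 1 mW, 4.2x values of Actn1 were above those of 2.6 mW and 1x, and at 680 s they were below. Actn4 at 2.6 mW had 179, 179 and 198 with 4.2x, against 73, 87 and 156 with 1x. Actn4 at 1 mW had 67, 51 and 116 with 4.2x, against 16, 13 and 56 with 1x. Flna went another way at 30 s and 2.6 mW, where the 4.2x value was the lower. It had 27, 39 and 60 with 4.2x Dazl at 2.6 mW, against 35, 19 and 48 with 1x. At 1 mW Flna had 3, 4 and 47 with 4.2x, against 2, 2 and 12 with 1x. Both Flna regions were thus close to the lowest value at 30 and 180 s in all 1 mW libraries.

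Myh9 at 2.6 mW had 228, 221 and 331 with 4.2x Dazl, against 88, 83 and 260 with 1x. Myh9 at 1 mW had 95, 61 and 206 with 4.2x, against 15, 14 and 111 with 1x. Myh9 was lower at 180 s than at 30 s in all 4 series. At 2.6 mW Myl12a had 109, 115 and 170 with 4.2x, against 42, 43 and 129 with 1x. At 1 mW it had 76, 36 and 101 with 4.2x, against 6, 5 and 51 with 1x.

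Cfl1 at 2.6 mW had 171, 171 and 223 with 4.2x Dazl, against 93, 87 and 170 with 1x. At 1 mW it had 58, 35 and 121 with 4.2x, against 9, 7 and 69 with 1x. Cfl1 had the same value at 30 and 180 s with 2.6 mW and 4.2x. At 2.6 mW Pfn1 had 77, 65 and 77 with 4.2x, against 49, 30 and 65 with 1x. At 1 mW it had 13, 12 and 39 with 4.2x, against 2, 2 and 32 with 1x.

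**Figure D2:**
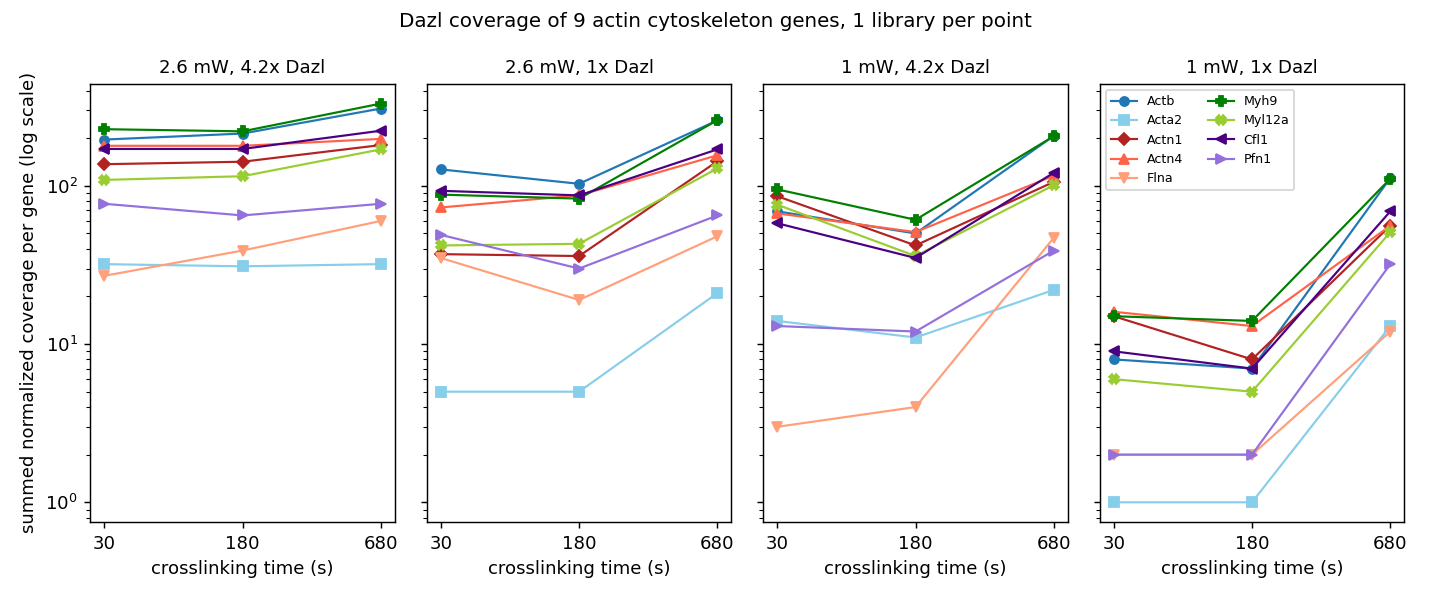
Summed normalized coverage of each gene (log axis) at 30, 180 and 680 s (drawn at equal spacing) in the 4 series of laser power and Dazl level, 1 library per point. Acta2 and Pfn1 at 2.6 mW and 4.2x Dazl end at their 30 s values of 32 and 77, and at 1 mW and 1x all 9 genes lie between 1 and 16 at 30 s.

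Libraries of 4.2x and 1x Dazl were compared first, for the dependence on protein amount. Coverage of 8 of the 9 genes was higher at 4.2x Dazl and that of none was lower, where 82.4% of all genes were called higher. The test was limma on log2(coverage + 3) over the 3203 genes, with laser power, Dazl level and time as additive terms and Benjamini-Hochberg adjustment. The largest differences were those of Myl12a (1.57 ± 0.34, log2 ± SE, 2.97-fold, adjusted p = 0.000127), Acta2 (1.55 ± 0.28, 2.93-fold, adjusted p = 9.14e-06) and Actn1 (1.54 ± 0.34, 2.91-fold, adjusted p = 0.000167). Myh9 (1.38 ± 0.36), Actb (1.31 ± 0.37), Actn4 (1.21 ± 0.35), Cfl1 (1.21 ± 0.35) and Pfn1 (0.90 ± 0.31, adjusted p = 0.00766) were also called higher. Each of these 8 was higher in 6 of 6 pairs of libraries matched on laser power and time, as was the library total. Flna did not pass (0.56 ± 0.29, adjusted p = 0.0673) and was higher in 5 of 6 pairs.

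The median change was 1.31 (2.49-fold) in the 9 genes and 0.88 (1.84-fold) over all genes, and the libraries themselves differed by 1.24-fold to 5.0-fold in total. All 9 genes have a mean coverage of at least 10, and 89.8% of the 2204 genes with such a mean were called by limma. After each library was scaled to the same total, 0 of the 9 genes and 0 of all genes differed between Dazl levels by the same limma test, with 3 of the 9 and 531 of all at an unadjusted p under 0.05. These 3 were Acta2 (0.83 ± 0.24 on scaled values, adjusted p = 0.185), Myl12a (0.48 ± 0.15, adjusted p = 0.224) and Actn1 (0.37 ± 0.16, adjusted p = 0.286). Within the 2.6 mW libraries alone 0 of the 9 and 0 of all genes passed, with differences from 0.63 (Actb and Pfn1) to 1.59 (Acta2) in the 8 genes called above and adjusted p-values between 0.0563 and 0.0757. Flna, by the same limma test, passed on leaving out the 30 s, 1 mW, 4.2x library (0.69, adjusted p = 0.0358), the 30 s, 2.6 mW, 1x library (0.78, adjusted p = 0.0204) or the 680 s, 2.6 mW, 4.2x library (0.74, adjusted p = 0.0284).

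**Figure D3:**
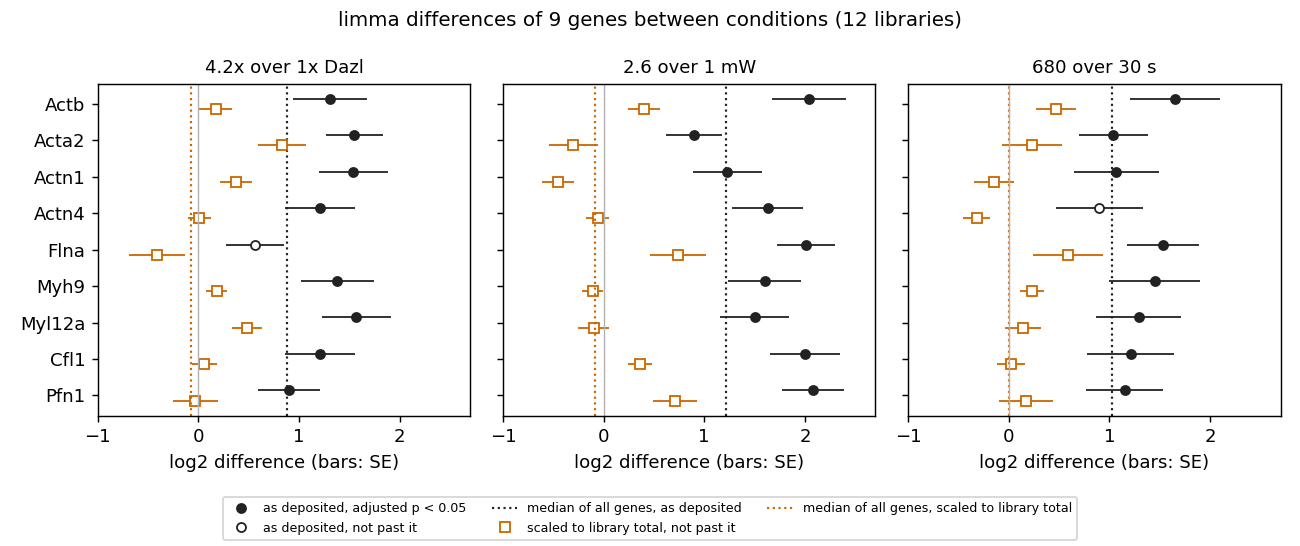
Log2 differences of the 9 genes with SE bars from limma over 12 libraries, for 4.2x over 1x Dazl, 2.6 over 1 mW and 680 over 30 s, on values as deposited (circles) and scaled to the library total (squares); filled symbols have an adjusted p under 0.05 and dotted lines are medians over all 3203 genes. On values as deposited the points of all 9 genes are above 0 and all but Flna for Dazl level and Actn4 for time are filled, while no scaled value is filled.

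Laser power was compared next, for the dependence on light. All 9 genes were higher at 2.6 mW, each in 6 of 6 pairs matched on Dazl level and time, where 93.4% of all genes were called higher. The library total was also higher in 6 of 6 pairs. Pfn1 (2.08 ± 0.31, log2 ± SE, 4.23-fold, adjusted p = 4.38e-08), Actb (2.04 ± 0.37, 4.1-fold), Flna (2.01 ± 0.29, 4.03-fold, adjusted p = 2.34e-08) and Cfl1 (2.00 ± 0.35, adjusted p = 8.6e-07) had the largest differences in limma. Actn4 (1.63 ± 0.35), Myh9 (1.60 ± 0.36) and Myl12a (1.50 ± 0.34) were in the middle. The smallest were Actn1 (1.23 ± 0.34, adjusted p = 0.000685) and Acta2 (0.90 ± 0.28, adjusted p = 0.00208). Acta2 and Actn1, among the 3 with the largest response to Dazl level, had the smallest differences with laser power. Flna and Pfn1, with the smallest differences for Dazl level, were among the 3 with the largest for laser power. The differences between genes were not tested. The ratio of matched libraries went up to 24.5-fold for Pfn1, with 49 at 2.6 mW and 2 at 1 mW (30 s, 1x), and to 17.5-fold for Flna, with 35 and 2 in the same libraries. In this 1 mW library each region of Pfn1 and Flna stood at 1, the lowest value listed, so the size of these ratios depends on it.

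The median change was 1.63 (3.11-fold) in the 9 genes and 1.22 (2.33-fold) over all. Of the genes with a mean coverage of at least 10, as all 9 have, 97.9% were called. On libraries scaled to the same total 0 of the 9 and 0 of all genes passed in limma, with 5 of the 9 and 932 of all at an unadjusted p under 0.05. Of these 5, Flna (0.74 ± 0.28 on scaled values), Pfn1 (0.71 ± 0.22), Actb (0.40 ± 0.16) and Cfl1 (0.36 ± 0.12) were positive and Actn1 (-0.45 ± 0.16) was negative, each with an adjusted p between 0.130 and 0.134. Without its region shared with Gm38733, Actb differed by 1.72 with laser power and by 1.54 with Dazl level on values as deposited, and remained called for both. That shared region had 74 at 2.6 mW and 2 at 1 mW in the 30 s libraries of 1x Dazl.

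The third comparison, 680 with 30 s, addresses the duration of crosslinking. Coverage of 8 of the 9 genes was higher at 680 s and that of none was lower, where 73% of all genes were called higher. Actb (1.65 ± 0.45, log2 ± SE, 3.13-fold, limma adjusted p = 0.00129), Flna (1.53 ± 0.36, adjusted p = 0.000176) and Myh9 (1.45 ± 0.45, adjusted p = 0.00354) differed most. Myl12a (1.29 ± 0.42), Cfl1 (1.21 ± 0.43), Pfn1 (1.15 ± 0.38), Actn1 (1.07 ± 0.42) and Acta2 (1.04 ± 0.34) were also called higher. Actn4 did not pass (0.90 ± 0.43, adjusted p = 0.0507). The median change was 1.21 (2.31-fold) in the 9 genes and 1.03 (2.04-fold) over all genes. In a fit of only the genes with a mean coverage of at least 10, 77.9% of them and all 9 were called. On scaled libraries 0 of the 9 passed, while 9.49% of all genes were called higher and 1.56% lower. The scaled differences ran from -0.32 ± 0.13 for Actn4 to 0.59 ± 0.35 for Flna.

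Leaving out 1 library at a time ended more calls for time than for the other factors, by limma as above. Actn1 did not pass on leaving out any 1 of 5 libraries, which were the 30 and 680 s libraries of 1 mW and 1x, the same 2 times of 2.6 mW and 1x, and the 30 s library of 2.6 mW and 4.2x (log2 differences between 0.85 and 1.05, adjusted p between 0.0518 and 0.125, against 1.07 with all libraries). Without the 680 s, 1 mW, 1x library Acta2 (0.76, adjusted p = 0.0738), Cfl1 (0.92, adjusted p = 0.0834) and Pfn1 (0.77, adjusted p = 0.101) were lost too. Without the 30 s, 1 mW, 1x library Cfl1 (0.91, adjusted p = 0.0758) and Pfn1 (0.82, adjusted p = 0.0714) were lost, and removing the 680 s library of 1 mW and 4.2x ended the Cfl1 call (1.10, adjusted p = 0.059). Calls over all genes fell as well. They were 2339 (73%) with all libraries and between 1678 (52.4%) and 2098 (65.5%) on leaving out any library named above. Actn4 passed on leaving out the 180 s, 1 mW, 1x library (0.90, adjusted p = 0.0309), the 30 s, 1 mW, 4.2x library (1.03, adjusted p = 0.0438) or the 680 s, 2.6 mW, 4.2x library (1.21, adjusted p = 0.00261). It also passed with the libraries matched on laser power and Dazl level as a block (0.90, adjusted p = 0.0314). A slope on log2 time kept 2 calls, those of Actb and Flna.

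Coverage at 180 s was often no higher than at 30 s. At 1 mW and 4.2x Dazl 8 of the 9 genes had less coverage at 180 s than at 30 s, and the library total was also lower, 48334 against 74552. At 2.6 mW and 1x 6 genes were lower at 180 s and 1 was equal, and at 1 mW and 1x 6 were lower and 3 equal. The library total fell there too, from 92228 to 86071 and from 14910 to 11271. Of all regions 54.75%, 45.02% and 15.66% were lower at 180 s in these 3 series, against 64.29%, 47.62% and 19.05% of the 42. At 680 s all 9 genes were above 30 s in these 3 series, by 1.33-fold to 4.2-fold at 2.6 mW and 1x, 1.23-fold to 15.7-fold at 1 mW and 4.2x, and 3.5-fold to 16-fold at 1 mW and 1x. The 15.7-fold ratio is that of Flna, from 3 to 47, and the 16-fold ratio that of Pfn1, from 2 to 32. These start near the lowest listed value, and their size depends on it. At 2.6 mW and 4.2x the ratios were between 1.0 and 2.22.

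Genes differed in how much of their 680 s coverage was listed at 30 s. At 2.6 mW and 4.2x Dazl this share was 100% for Acta2 and Pfn1, 90.4% for Actn4, 76.7% for Cfl1, 75.7% for Actn1, 68.9% for Myh9, 64.1% for Myl12a, 63.6% for Actb and 45.0% for Flna, and 68.8% for the whole library. At 1 mW and 1x it was 28.6% for Actn4 and 26.8% for Actn1, between 6.25% and 16.7% for the other 7, and 18.7% for the library. The order changed between series. Pfn1 had 75.4% at 2.6 mW and 1x, against 33.3% at 1 mW and 4.2x, while Actn1 had 25.9% and 81.1% in the same series, and Flna had 72.9% and 6.38%.

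The regions of a gene differed more among themselves than the gene totals show. At 2.6 mW and 4.2x Dazl the share at 30 s ran from 2.33% to 100% over the 5 regions of Myl12a, from 6.67% to 100% over the 6 of Cfl1, from 8.0% to 100% over the 12 of Myh9, and from 18.8% to 100% over the 5 of Actn1. Of the 42 regions 32 (76.2%) had at least 50% of their 680 s value at 30 s and 3 (7.14%) had under 10%, against 67.8% and 6.84% of all regions. At 1 mW and 1x Dazl 1 region (2.38%) had at least 50% and 19 (45.2%) had under 10%, against 18.3% and 19.4% of all regions, where all regions include many that stay at the lowest value. That value is 1, so only a region above 10 at 680 s can be under 10% at 30 s. In this series the median at 680 s was 12 for the 42 regions and 8 over all regions. The shares thus depend on the level at 680 s and are not read as a difference in filling.

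**Figure D4:**
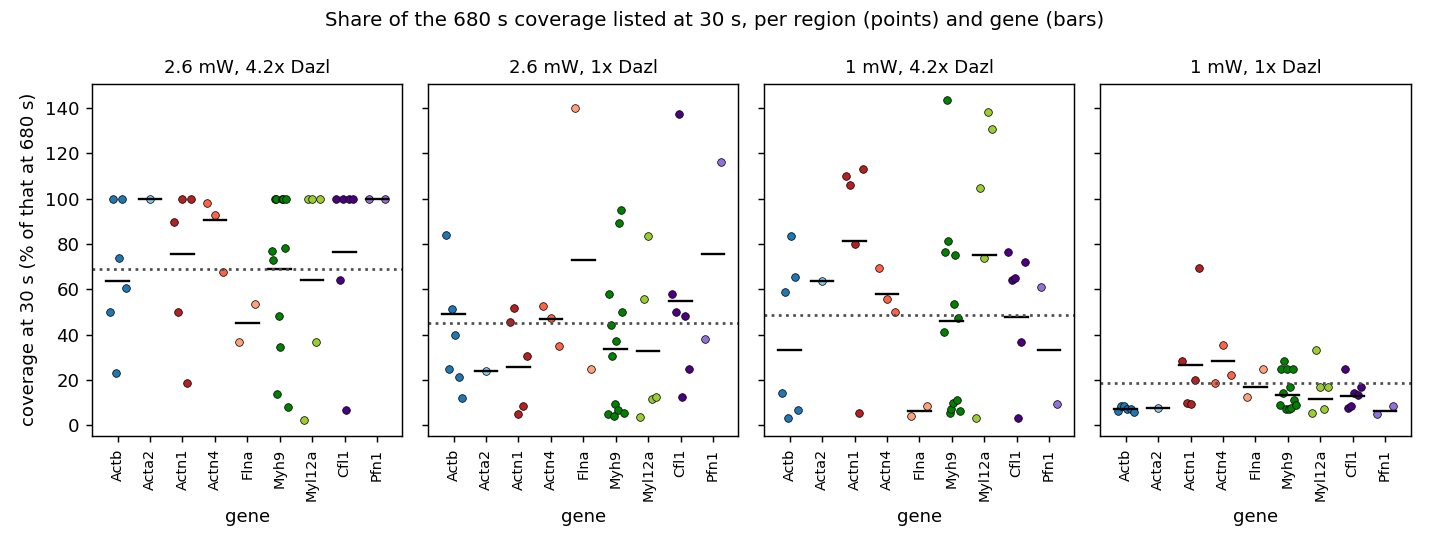
Coverage at 30 s as a percentage of that at 680 s for each of the 42 regions (points) and for each gene total (bars) in the 4 series, 1 library per time; the dotted line is the whole library. Points of 1 gene spread widely, from 2.33% to 100% for Myl12a at 2.6 mW and 4.2x Dazl, and in the middle panels some exceed 100% where the 30 s value was above that of 680 s.

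Neighbouring sites of 1 gene could have unlike courses. The following examples were chosen after their values were seen. In Myl12a the region at 70994369 to 70994385 had 1, 1 and 43 at 30, 180 and 680 s with 2.6 mW and 4.2x Dazl, while the region at 70994398 to 70994414, 12 nt away, had 36, 36 and 36. With 2.6 mW and 1x Dazl the first had 1, 1 and 28 and the second 15, 20 and 27. With 1 mW and 4.2x Dazl they had 1, 1 and 30 and 23, 11 and 22. The first region thus stood at the lowest value until 680 s in all 4 series, and at 680 s it was the higher of the pair in each. In Actn1 the regions at 80167932 to 80167948 and 80167974 to 80167990, 25 nt apart, had 61, 57 and 61 and 6, 15 and 32 at 2.6 mW and 4.2x. In Cfl1 the region at 5493661 to 5493677 had 3, 13 and 45, against 39, 38 and 39 in the region at 5493721 to 5493737.

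Of the 42 regions 2 (4.76%) had under 10% of their 680 s value at 30 s in all 4 series, against 1.79% of all regions. With a lowest listed value of 1, only regions above 10 at 680 s in every series can meet this. At 1 mW and 1x the median at 680 s was 12 for the 42 and 8 over all regions, so the shares are not comparable. The 2 regions are the Myl12a region at 70994369 and the Myh9 region at 77819570 to 77819586, which is the region of Myh9 farthest from the 3 prime end. The Myh9 region had 2, 1 and 25 at 2.6 mW and 4.2x, 1, 1 and 18 at 2.6 mW and 1x, and 1, 1 and 16 at 1 mW and 4.2x.

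Values of different libraries were not independent. At 2.6 mW and 4.2x Dazl 0 of the 42 regions were higher at 30 s than at 680 s, and 19 (45.2%) had exactly the same value at both times, among them both regions of Pfn1, the region of Acta2, 4 of 6 in Cfl1, 3 of 5 in Myl12a and 5 of 12 in Myh9. Over all regions 45.5% were the same. In the other 3 series 0 of the 42 were the same, against 3.79% of all regions at 2.6 mW and 1x, 5.53% at 1 mW and 4.2x, and 9.39% at 1 mW and 1x. The 30 s value was the higher in 3 (7.14%), 7 (16.7%) and 0 of the 42 in these series, against 7.99%, 7.28% and 0.88% of all regions. The 180 s value was above that of 680 s in 0 of the 42 in each of the 4 series. Of all regions 0.59% were so at 2.6 mW and 1x, and 0% in each other series. What links these libraries is not described in the labels, so the flat courses of Acta2 and Pfn1 at 2.6 mW and 4.2x are not shown to be separate measurements. The limma p-values take the libraries as independent and rest mostly on a spread pooled over genes.

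Whether the response to 1 factor differed with another was tested with interaction terms in limma. For Dazl level at 2.6 against 1 mW, 0 of the 9 genes passed, where 0% of all genes were called higher and 0.0312% lower. Of the 9 genes 8 had a negative value, that is a smaller Dazl difference at 2.6 mW, as had 2030 of all 3203 genes. On scaled values 4 of the 9 were negative and 5 positive, with a median of 0.02. On values as deposited Actb was the farthest from 0 (-1.36 ± 0.66, adjusted p = 0.302), the only gene of the 9 with an unadjusted p under 0.05 (486 of all genes). Without the 680 s, 1 mW, 1x library 5 of the 9 passed, all lower, as did 860 (26.8%) of all genes in either direction. For Dazl level at 680 against 30 s, 0 of 9 and 0% of all genes passed, with 1 of the 9 and 224 of all at an unadjusted p under 0.05. Acta2 had -1.51 ± 0.67 there (adjusted p = 0.66), and Flna was the single gene of the 9 with a positive value, as 913 of all genes had (1.06 ± 0.71, adjusted p = 0.667). For laser power at 680 against 30 s, 0 of 9 and 0% of all genes passed, with 2 of the 9 and 185 of all at an unadjusted p under 0.05, which were Pfn1 (-1.91 ± 0.68, adjusted p = 0.574) and Flna (-1.57 ± 0.67, adjusted p = 0.712).

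The wider actin network was described with a list of other genes. Of its 83 genes 38 had a region and 45 had none. By limma on values as deposited 27 of the 38 (71.1%) were higher at 4.2x Dazl, 37 (97.4%) at 2.6 mW and 32 (84.2%) at 680 s, against 82.4%, 93.4% and 73% of all genes, and 0 were lower in any of the 3. Their median changes were 1.06, 1.36 and 1.27, against 0.88, 1.22 and 1.03 over all genes. With Dazl level the small GTPase Cdc42 differed by 1.74 ± 0.36 and the membrane linker Msn by 1.73 ± 0.32. With laser power the monomer-binding protein Twf1 differed by 2.11 ± 0.28, and the formin Diaph1 was the gene that did not pass (0.14 ± 0.10). With time the Arp2/3 subunit Arpc1b differed by 2.56 ± 0.22, the cyclase-associated protein Cap1 by 2.38 ± 0.19 and the focal adhesion protein Zyx by 2.24 ± 0.20.

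On scaled libraries 7 of the 38 (18.4%) were higher at 680 s, against 9.49% of all genes. They were Arpc1b, Cap1, Zyx, Tln1, Rock2, Actr2 and Cttn, with differences from 0.94 to 1.78. All but Actr2 have a single region. At 2.6 mW and 4.2x Dazl Arpc1b had 2, 2 and 36 at 30, 180 and 680 s, Cap1 had 1, 1 and 31, and Zyx had 3, 2 and 30. These 3 were at 1 at 30 and 180 s in the 3 other series, so the size of their change depends on the lowest value and on the pseudocount.

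Patterns over libraries were compared on scaled values with that of Myh9, the gene of the 9 with the highest summed coverage. Over 12 libraries and 2203 other genes with a mean coverage of at least 10, the most alike were Sars2 (Pearson r = 0.936), Anxa2 (0.925) and Chd2 (0.917), each with 2 regions. Of the 9 genes Acta2 (0.809, rank 89) and Myl12a (0.649, rank 288) were the nearest, and Actn4 (-0.318), Flna (-0.28), Cfl1 (-0.128) and Pfn1 (-0.041) had negative values. These correlations share library scaling and the lowest values of the weakest libraries, and are given as a description.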

How the data were processed

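KIN-CLIP libraries of 12 conditions were used, with 1 library each. Each deposited file lists intervals with a whole-number score, named normalized coverage by the authors, without header or strand. FastQC, Bowtie2 and mm10 are named per the submitters' processing notes. The sources used here do not describe how coverage was normalized or sites chosen. Read depth is unknown, so no counting interval is given.

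Intervals no more than 10 nt apart were joined across libraries, and region and gene values are sums of width times score. Regions were given to RefSeq gene spans (GRCm38.p6, the assembly of mm10) where a single gene, or a single protein-coding one, overlapped (7838 regions). Strand came from RefSeq promoter records. Genes were tested with limma 3.58.1 in R 4.3.3 (eBayes, trend and robust) on log2(coverage + 3), with 7 residual degrees of freedom and a median of 107.09 prior degrees of freedom in the additive model. P-values were adjusted over 3203 genes at a threshold of 0.05. Fold changes on this scale understate the change of low genes. The script was tested on simulated data. The named genes include all 9 genes, some markers and relatives, and the 3 genes most like the highest of the 9. Genes of the wider list were named for the largest differences or for a call on scaled libraries. Diaph1 was named because it was not called for laser power. The genes, lists and tests were chosen with earlier results of these data known.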

Additional observations from a re-analysis of the deposited data

How the results depend on the processing

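The direction and the number of calls among the 9 genes kept within 1.5 times of the reported counts for Dazl level in 14 of 17 alternatives, for laser power in 16 of 17 and for time in 13 of 17, counted without the fits that leave out 1 library and with those chosen after seeing the data. These cover pseudocounts of 1 and 10, a minimum mean coverage of 10, other rules for shared regions, joining at 0 or 50 nt, plain eBayes and subsets of libraries. Scaling each library to the same total left 0 called genes for each of the 3 factors, against 8 for Dazl level, 9 for laser power and 8 for time. It turned the sign of Flna (-0.41) and Pfn1 (-0.03) for Dazl level, of Acta2 (-0.30), Actn1 (-0.45), Actn4 (-0.06), Myh9 (-0.11) and Myl12a (-0.10) for laser power, and of Actn1 (-0.15) and Actn4 (-0.32) for time, none of them called there. Without the 30 s libraries 3 genes were called for Dazl level (Acta2, Actn1 and Myl12a), and in the 2.6 mW libraries alone 0. For time, 1 gene was called at 4.2x Dazl alone (Flna), 1 at 2.6 mW alone (Myl12a) and 2 with a slope on log2 time. Over all genes the calls for Dazl level were 2640, against 1177 when the 30 s libraries were left out, 1509 when those of 180 s were, 0 at 2.6 mW alone and 0 when scaled. For laser power they were 2993, against 0 when scaled. For time they were 2339, against 829 at 4.2x Dazl alone, 992 at 2.6 mW alone, 1224 with the slope and 354 when scaled. Such subsets hold fewer libraries than the main fit. For Dazl level, 1 mW alone gave 9 calls among the 9 genes and 2088 over all genes, against 0 and 0 at 2.6 mW alone. For laser power, 4.2x alone and 1x alone gave 9 and 9 calls among the 9 genes and 2375 and 2347 over all. The cause of the lost calls was not tested. Leaving out each library in turn gave 8 to 9 calls for Dazl level and 9 to 9 for laser power. It gave 4 to 9 for time, the lowest without the 680 s, 1 mW, 1x library (with 1678 of all genes called, against 2339). It gave 0 to 5 calls for the interaction of laser power and Dazl level (5 without the same library, with 860 of all genes called, against 1) and 0 to 0 for the other interactions.

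Alternatives chosen after seeing the data left out the 30 and 180 s libraries of 1 mW and 1x Dazl, or the tied 2.6 mW, 4.2x series. They gave 7 and 9 calls for Dazl level (2232 and 2025 of all genes), 9 and 9 for laser power (2985 and 2469), and 9 and 9 for time (2105 and 2591). A further alternative, also chosen after seeing the data, took libraries matched on the 2 other factors as a block and gave 8, 9 and 9 calls (2660, 2984 and 2459 of all genes). A block on replicate number could not be fitted, because each condition has 1 library. Depth is not known, and values at the lowest listed coverage limit what the weakest libraries can show.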
